A study of Sus scrofa with 12 samples.

Results

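The genes described here encode the mitochondrial carrier family, SLC25, in pig liver, with the uncoupling proteins UCP2 and UCP3. They were chosen by name: rows of the gene table whose symbol is SLC25A followed by a number, except SLC25A15 and SLC25A20, plus UCP2 and UCP3. This gave 37 of the 21169 gene rows, of which 34 had enough counts to be among the 13532 genes tested. UCP3, SLC25A2 and SLC25A31 had too few counts. Liver was taken on day 15 from pigs of 2 breeds, Hezuo and Bama, kept at 23 ± 2 °C (room temperature) or at -15 ± 2 °C (cold), with 3 pigs in each of the 4 groups. The groups are called Bama RT, Bama cold, Hezuo RT and Hezuo cold below, where RT stands for room temperature. The question was how liver RNA differs with cold in each breed, and the RT group of the same breed is the control of each cold group. The labels name no genetic change and give neither age nor sex. Total RNA depleted of ribosomal RNA was sequenced, and the authors deposited estimated counts and FPKM (fragments scaled to transcript length and sequencing depth) per gene.

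Most carriers of this family sit in the inner mitochondrial membrane and exchange 1 metabolite for another, so they join the reactions of the matrix to those of the cytosol. In liver they move ADP and ATP, phosphate, citrate, malate, aspartate, glutamate, nucleotides and cofactors. Uncoupling proteins belong to the same family. UCP1, which makes heat in brown fat, is inactivated in pigs, and UCP2 and UCP3 are related proteins whose part in heat production is doubtful.

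Gene counts totalled 20041285 to 30188037 per library. All 6 hepatocyte markers looked for were detected, with summed levels of 104000 to 116000 CPM (counts scaled to library size by TMM) in Bama RT pigs, 25100 to 84100 in Bama cold pigs, 140000 to 167000 in Hezuo RT pigs and 51900 to 133000 in Hezuo cold pigs. ALB made up most of each sum. With cold 6 of the 7 marker rows, 1 of them a second SERPINA1 row at 1.07 CPM or less, had a negative log2 fold change in each breed. At an edgeR adjusted p below 0.05, 2 of the 7 were lower in Bama and 0 in Hezuo pigs. Of all genes, 0.539% and 0.0813% were. Averaged over both breeds 3 were lower, against 1.94% of all genes. In Hezuo pigs the positive row was APOA1, at 1450, 1640 and 1650 CPM at room temperature and 1850, 1760 and 3370 in the cold. In Bama pigs it was CPS1, at 1450, 3910 and 1770 CPM in Bama RT pigs and at 4520, 4360 and 6260 in the cold. The 7 Kupffer cell and macrophage markers summed to 1340 to 2020 and 2000 to 3660 CPM in Bama RT and Bama cold pigs, and to 782 to 1380 and 1320 to 2660 CPM in Hezuo pigs. The 5 stellate cell markers summed to 1600 to 3360 and 469 to 837 CPM, and to 1060 to 1890 and 550 to 1030 CPM. Of these 5, edgeR called 1 lower with cold in Bama pigs, 0 in Hezuo pigs and 3 averaged over both breeds. Their part in the results below was not tested, and in bulk liver fewer cells of a type cannot be told apart from less RNA per cell. Of the 6 skeletal muscle markers, 4 matched a row, TNNT3 was at 0, and the 4 summed to at most 0.191 CPM in any library. DDX3Y, a gene of the Y chromosome, was at 60.4 CPM or more in Bama cold replicates 1 and 3 and in the 6 Hezuo libraries, and at 0.111 CPM or less in the other 4 Bama libraries. Cold and the presence of Y-linked RNA can therefore not be fully told apart in Bama pigs. At room temperature breed and that RNA cannot be told apart at all. Within a group it varied only in Bama cold pigs, where replicate 2 lacked it. Fits below with Y-linked RNA as a covariate take its effect from that library alone. For cold in Hezuo pigs and breed in the cold, such a fit nearly equals leaving that library out.

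SLC25A47, a carrier known for its high expression in liver, had the highest mean FPKM over the 12 libraries at 209.8, followed by the phosphate carrier SLC25A3 at 95.8 and the ADP/ATP carrier SLC25A4 at 81.6. These 3 held 50.07% of the summed FPKM of the family. Of the 37 members, 13 had a mean above 10 FPKM, 17 lay between 1 and 10, and 7 were below 1. The most even member was the mitochondrial iron carrier SLC25A28 (mitoferrin 2), whose highest library was 1.36 times its lowest in CPM. The widest ranges were those of SLC25A47 (73.5 times), SLC25A45 (27.1 times) and SLC25A33 (16.1 times), against a median of 2.46 times over the 34 tested members.

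**Figure D1:**
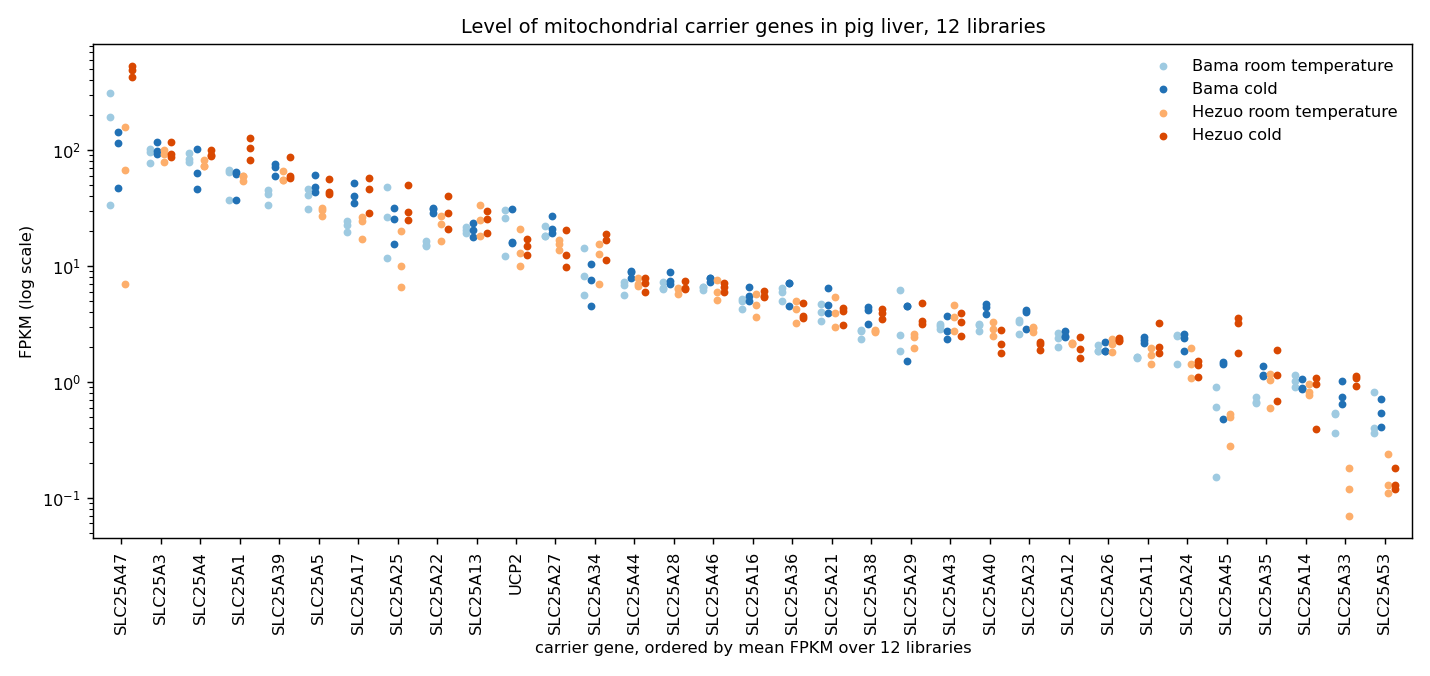
FPKM of tested carrier genes, all but 1 of the 34 (log scale), in each of 12 libraries, with genes ordered by mean FPKM and points coloured by group. SLC25A47 spreads from 6.99 to 527.98 FPKM, while SLC25A3 stays between 77.47 and 117.33 FPKM, and the Hezuo RT points of SLC25A33 lie below those of the other groups.

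The summed FPKM of the family was 853.5, 696.7 and 529.2 in the 3 Bama RT libraries, in order of replicate, and 707.3, 694.7 and 675.3 in the cold. In Hezuo pigs it was 571.3, 634.7 and 510.2 at room temperature and 1118, 1167 and 1123 in the cold. The Hezuo cold libraries thus had the highest sums of the 12. SLC25A47 alone made up 37.96% to 45.25% of the sum in those 3 libraries, against 1.37% to 36.2% elsewhere. Without SLC25A47 the Hezuo sums were 474.6 to 504.4 at room temperature and 628 to 696.8 in the cold, and the Bama sums 495.8 to 544.5 and 564.4 to 628. The cold libraries were above the RT libraries in both breeds on that measure. FPKM sums are not scaled by TMM. Its factors were 1.054, 0.9795 and 1.09 in the Bama RT libraries and 1.197, 1.165 and 1.098 in the Bama cold libraries. Divided by these factors, the Bama sums without SLC25A47 overlapped between temperatures, so their separation did not hold under that scaling. The Hezuo sums, divided by their own factors, stayed apart.

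**Figure D2:**
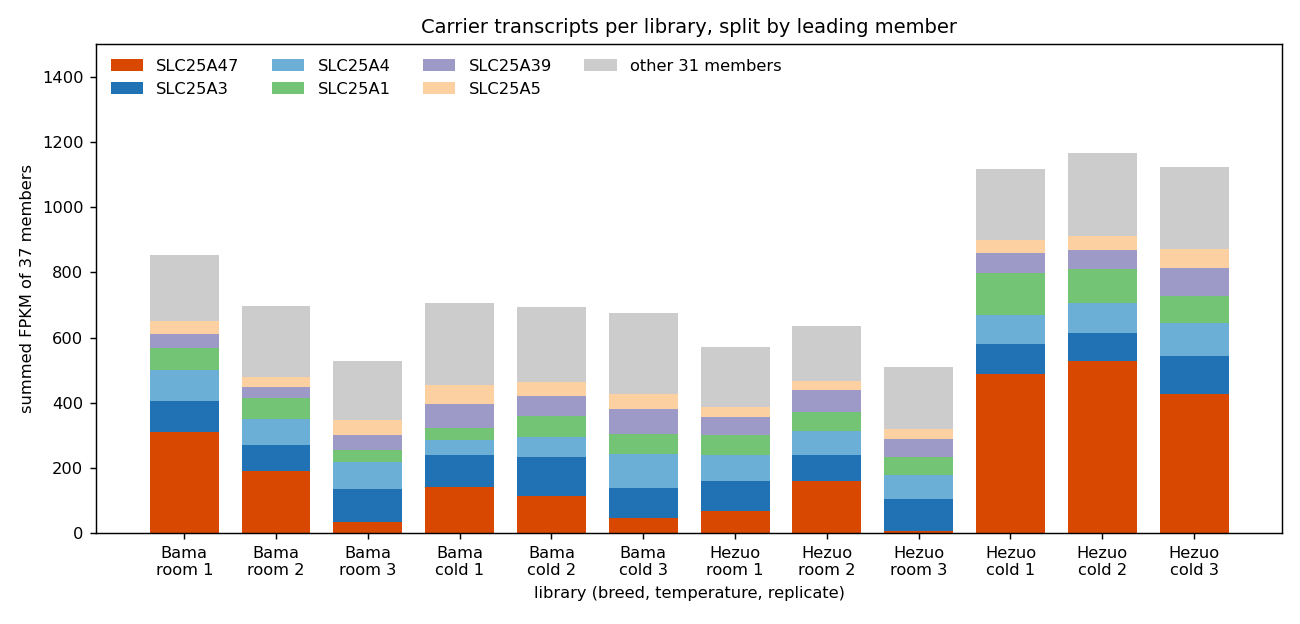
Summed FPKM of the 37 members in each library, split into the 6 members of highest mean FPKM and all others. The 3 Hezuo cold bars reach 1118 to 1167 FPKM, and the SLC25A47 segment makes up 37.96% to 45.25% of each.

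Cold in Hezuo pigs was followed by a rise of 1 tested member of 34, the pyrimidine nucleotide carrier SLC25A33, at an edgeR quasi-likelihood adjusted p below 0.05, when 0.281% of all genes tested were called. Of all genes, 0.2% were called higher and 0.0813% lower, and no member was called lower. At an unadjusted p below 0.05, 9 members were higher and 2 lower, against 8.31% and 7.25% of all genes tested in those directions. The 3 cold and 3 RT libraries did not overlap for 10 members higher and 1 lower, against 10.8% and 10.9% of all genes. The median log2 fold change of the tested members was 0.11, from -0.52 to 3.01, and that of all genes was -0.01. In Bama pigs edgeR called 0 members, when 0.924% of all genes were called (0.384% higher and 0.539% lower). DESeq2 called 2 members, SLC25A22 and SLC25A39, among 674 genes in all. At an unadjusted p below 0.05, 5 were higher and 0 lower, against 7.78% and 8.01% of all genes. Groups did not overlap for 7 members higher and 1 lower, against 11.2% and 10.2%. The median was 0.06, from -0.95 to 0.89, against -0.01 over all genes.

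Averaged over both breeds, 4 members rose in the cold and 0 fell, when 3.89% of all genes were called (1.95% higher and 1.94% lower). They were SLC25A33, the glycine carrier SLC25A38, the peroxisomal cofactor carrier SLC25A17 and SLC25A45. At an unadjusted p below 0.05, 8 were higher and 0 lower, against 11.7% and 11.8% of all genes, and the median was 0.07 against -0.01. Groups did not overlap in either breed for 3 members, all higher, against 2.42% of all genes higher and 2.69% lower. This average uses the same 12 libraries as the comparisons within each breed, so the values are side by side and not independent. The breed difference in the cold response, Hezuo minus Bama, was called for 0 members by edgeR, when 0.00739% of all genes were called, and for 1, SLC25A33, by DESeq2. At an unadjusted p below 0.05 it was positive for 4 members and negative for 1, against 4.43% and 3.58% of all genes.

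**Figure D3:**
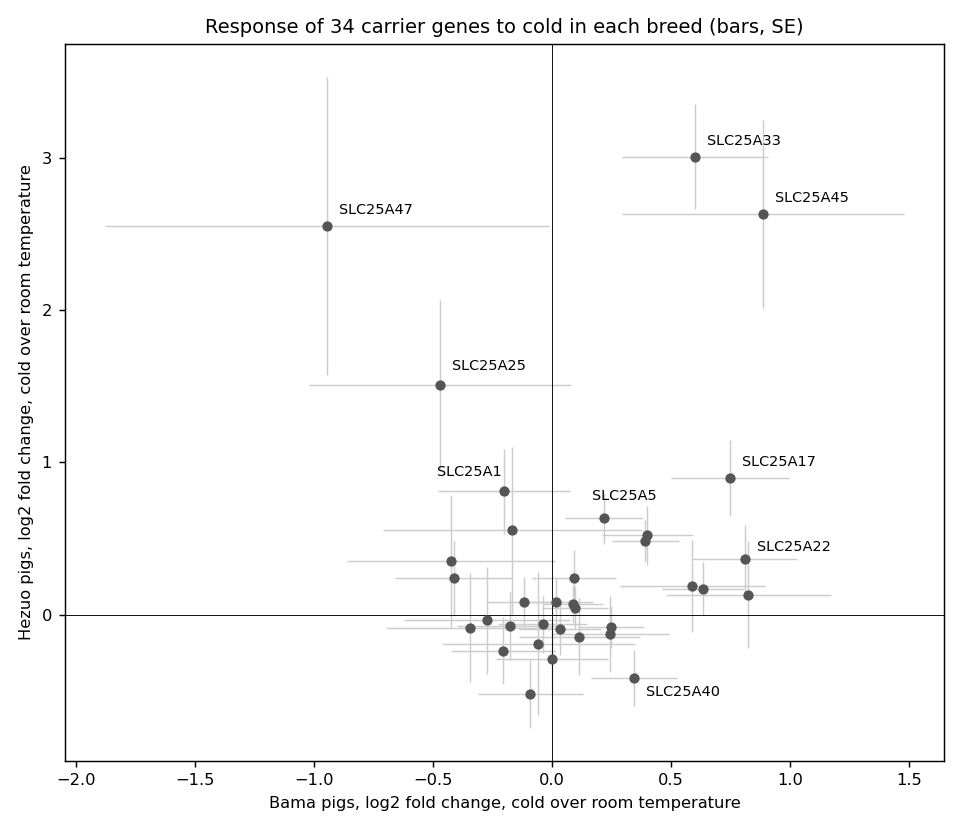
Log2 fold change of cold over room temperature in Bama pigs (horizontal) and Hezuo pigs (vertical) for the 34 tested members, with bars for the SE. SLC25A33 and SLC25A45 lie highest in Hezuo pigs (3.01 and 2.63), SLC25A47 lies at 2.55 in Hezuo and -0.95 in Bama pigs with wide bars, and most other members lie closer to 0 on both axes.

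Between the breeds at room temperature 1 member was called, SLC25A33, lower in Hezuo pigs, when 1.08% of all genes were called (0.672% higher and 0.406% lower). At an unadjusted p below 0.05, 5 were higher and 2 lower, against 9.93% and 9.9% of all genes. Groups did not overlap for 8 members higher and 2 lower in Hezuo pigs, against 13% and 10.8% of all genes. In the cold 1 member was called, the citrate carrier SLC25A1, higher in Hezuo pigs, when 2.76% of all genes were called (1.8% higher and 0.961% lower). At an unadjusted p below 0.05, 9 were higher and 3 lower, against 11.2% and 9.92% of all genes. There the groups did not overlap for 10 members higher and 3 lower, against 12.3% and 12.9%. The median of the tested members was 0.14 at room temperature and 0.26 in the cold, against 0.00 and -0.01 over all genes.

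Adenine nucleotide and phosphate carriers supply ATP synthesis: SLC25A3 imports phosphate, and SLC25A4 and SLC25A5 exchange ADP for ATP. SLC25A3 stood at 127.8, 110.8 and 130.9 CPM in Bama RT pigs, 114.3, 141.2 and 118.1 in the cold, 147.4, 124.3 and 151.3 in Hezuo RT pigs and 139.5, 126.8 and 181.4 in the cold. These groups overlapped, and the log2 fold changes with cold were 0.02 ± 0.16 in Bama and 0.08 ± 0.16 in Hezuo pigs (SE; adjusted p = 0.973 and 0.839). SLC25A5 stood at 53.9, 43.7 and 58.2 CPM in Bama RT pigs, 69.9, 51.6 and 59.8 in the cold, 47.5, 41.2 and 46.8 in Hezuo RT pigs and 62.5, 62.0 and 85.3 in the cold. The Hezuo cold libraries lay above the Hezuo RT libraries without overlap, but the difference did not pass (0.63 ± 0.17, adjusted p = 0.129). DESeq2 gave 0.64 with adjusted p = 0.025.

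SLC25A4, the form known from heart and muscle, stood at 114.5, 104.6 and 97.7 CPM in Bama RT pigs and at 49.3, 70.0 and 118.7 in the cold. In Hezuo pigs it stood at 120.3, 104.2 and 100.1 CPM at room temperature and at 121.6, 120.6 and 140.6 in the cold. Bama cold replicates 1 and 2 were the lowest of the 12 libraries. Hezuo exceeded Bama libraries in the cold without overlap, with a difference that did not pass (0.69 ± 0.25, adjusted p = 0.145). Of the FPKM of SLC25A4 and SLC25A5 together, SLC25A4 supplied 68.8% ± 3.73 (SD, n = 3) in Bama RT pigs, 57.0% ± 12.7 in Bama cold pigs, 72.1% ± 1.98 in Hezuo RT pigs and 66.6% ± 2.10 in Hezuo cold pigs. Within Hezuo pigs that share was lower in all 3 cold libraries (64.1% to 67.9%) than at room temperature (69.8% to 73.2%). These genes are close relatives, and how the authors' counting split reads between them is not known.

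SLC25A25, a calcium-regulated carrier of ATP-Mg and phosphate, had means of 43.7 ± 25.5 and 124.2 ± 51.99 CPM (SD, n = 3) in Hezuo RT and Hezuo cold pigs. Means in Bama pigs were 95.3 ± 66.0 and 68.7 ± 20.2 CPM. SLC25A25 had a log2 fold change with cold of 1.51 ± 0.56 in Hezuo pigs (SE, adjusted p = 0.236). Its relative SLC25A23 was at -0.52 ± 0.22 in Hezuo pigs (adjusted p = 0.293) and SLC25A24 at -0.29 ± 0.24. SLC25A31, the ADP/ATP carrier of testis, had 0 counts in every library, which allows up to 0.0943 to 0.143 CPM (3 counts per library, counting error only). In this group of carriers, edgeR called 0 of 6 tested members in any of the 6 comparisons. Over these it called 0.00739% to 3.89% of all genes, with 0.281% for cold in Hezuo and 0.924% for cold in Bama pigs. At an unadjusted p below 0.05, 1 was higher and 1 lower for breed in the cold, against 11.2% and 9.92% of all genes. The breed difference in the response was positive for 1 (against 4.43%), and the average was higher for 1 (against 11.7%). For breed at room temperature there were 0. With cold in Hezuo pigs 2 of the 6 were higher and 1 lower at an unadjusted p below 0.05, against 8.31% and 7.25% of all genes, and 0 in Bama pigs, against 7.78% and 8.01%.

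Of UCP2 and UCP3, only UCP2 was at a level that could be tested. UCP2 stood at 41.1, 20.6 and 46.8 CPM in Bama RT pigs, 42.6, 23.3 and 23.97 in the cold, 18.1, 37.4 and 23.3 in Hezuo RT pigs and 21.1, 28.2 and 27.4 in the cold. The 4 groups overlapped throughout. Its log2 fold change with cold was -0.27 ± 0.35 in Bama pigs (95% interval -1.075 to 0.53, adjusted p = 0.755) and -0.04 ± 0.35 in Hezuo pigs (-0.85 to 0.77, adjusted p = 0.972). Hezuo against Bama gave -0.46 ± 0.35 at room temperature and -0.23 ± 0.35 in the cold (adjusted p = 0.503 and 0.759). UCP2 is also made by macrophages. The 7 macrophage markers had positive log2 fold changes with cold in both breeds, with medians of 0.64 in Bama and 0.68 in Hezuo pigs, and edgeR called 0 of them within either breed. In each breed 2 of the 7 were higher at an unadjusted p below 0.05, against 8.31% of all genes in Hezuo and 7.78% in Bama pigs. Averaged over both breeds 1 of the 7 was called higher and 4 had an unadjusted p below 0.05, against 1.95% and 11.7% of all genes. Of 5 T and NK cell markers, 4 were negative with cold in Bama and 1 in Hezuo pigs. All 5 were lower in Hezuo than in Bama pigs at room temperature at an unadjusted p below 0.05, against 9.9% of all genes. Of the 7 macrophage markers 6 were negative there, 0 of them at that p. In both lists edgeR called 0 there. The part of either cell type in the UCP2 values was not tested.

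UCP3, known from skeletal muscle, had 0, 4 and 0 counts in Bama RT pigs, 0, 1 and 1 in the cold, 0, 2 and 0 in Hezuo RT pigs and 0, 5 and 1 in the cold. The highest of these is 0.216 CPM. UCP2 and UCP3 are direct neighbours among the protein-coding genes of chromosome 9 in the RefSeq annotation of Sscrofa11.1. SLC25A27, also called UCP4 and known from brain, had a mean of 17.8 FPKM, close to the 18.3 FPKM of UCP2, and SLC25A14 (UCP5) had 0.902 FPKM. SLC25A27 had log2 fold changes with cold of 0.12 ± 0.25 in Bama and -0.14 ± 0.25 in Hezuo pigs, and SLC25A14 of -0.35 ± 0.35 and -0.09 ± 0.36. Of these 3 tested genes, edgeR and DESeq2 called 0 in the 6 comparisons, and 0 had an unadjusted p below 0.05 in edgeR. Over the 6 comparisons edgeR called 0.00739% to 3.89% of all genes. In each direction 3.58% to 11.8% of all genes had an unadjusted p below 0.05, so 3 genes are too few to set against these shares.

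Carriers of carboxylates, aspartate and glutamate link the citric acid cycle to fat synthesis, gluconeogenesis and the urea cycle. SLC25A1, which exports citrate from mitochondria for the synthesis of fatty acids and sterols, stood at 101.5, 104.9 and 53.5 CPM in Bama RT pigs and at 49.4, 87.7 and 88.8 in the cold. Hezuo pigs had 107.9, 104.6 and 92.0 CPM at room temperature and 216.1, 172.1 and 144.8 in the cold. The 3 Hezuo cold libraries were the highest of all 12. In the cold SLC25A1 was 2.36 times as high in Hezuo as in Bama pigs (log2 1.24 ± 0.28, adjusted p = 0.0411). Leaving out any of 9 libraries ended that call, with adjusted p from 0.052 (without Bama RT replicate 1) to 0.125 (without Bama cold replicate 1 or Hezuo cold replicate 1) and log2 values between 1.01 and 1.36 in those 9 fits. It held without Bama RT replicate 2 or 3 or Bama cold replicate 3. It was also lost with only the 2 cold groups (1.24, adjusted p = 0.0758) and with the replicate number as a block (1.21, 0.0668). With Y-linked RNA as a covariate, nearly the fit without Bama cold replicate 2, it was 1.36 (0.0723). The change with cold within Hezuo pigs did not pass (0.81 ± 0.28, adjusted p = 0.204), nor did the breed difference in the cold response (1.01 ± 0.39, adjusted p = 0.536).

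SLC25A22, a glutamate carrier, stood at 39.7, 46.04 and 37.2 CPM in Bama RT pigs and at 72.0, 67.1 and 76.3 in the cold. Hezuo pigs had 70.8, 49.5 and 81.4 CPM at room temperature and 83.9, 114.1 and 62.2 in the cold. The Bama RT libraries were the lowest 3 of the 12. Neither cold in Bama pigs (0.81 ± 0.22, adjusted p = 0.114) nor breed at room temperature (0.72 ± 0.22, adjusted p = 0.114) passed in edgeR, while DESeq2 gave adjusted p = 0.0213 and 0.0419. With Y-linked RNA as a covariate in edgeR, cold in Bama pigs gave 0.71 (adjusted p = 0.975). Over the 20 alternative fits of edgeR, DESeq2 and limma breed at room temperature ranged from 0.49 to 0.88, with adjusted p up to 0.73. SLC25A13 (citrin), the aspartate-glutamate carrier of liver, was at 57.8 ± 4.33 and 51.2 ± 10.1 CPM in Bama RT and Bama cold pigs and 82.1 ± 22.2 and 78.0 ± 18.2 CPM in the 2 Hezuo groups. Its relative SLC25A12 supplied 5.96% to 12.1% of the FPKM of the pair over the 12 libraries. SLC25A11, the oxoglutarate-malate carrier, had log2 fold changes with cold of 0.40 ± 0.19 in Bama and 0.52 ± 0.19 in Hezuo pigs, with no overlap of temperatures in either breed and adjusted p = 0.34 and 0.227. SLC25A21, a carrier of oxodicarboxylates of lysine and tryptophan breakdown, had 0.25 ± 0.25 and -0.13 ± 0.25.

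Of the amino acid carriers, SLC25A38 and SLC25A45 rose in the cold over both breeds. SLC25A38, which brings glycine into mitochondria for the first step of haem synthesis, stood at 20.3, 21.03 and 16.2 CPM in Bama RT pigs and at 27.6, 26.8 and 21.1 in the cold. Hezuo pigs had 23.0, 21.6 and 22.8 CPM at room temperature and 28.6, 33.1 and 32.6 in the cold. Temperatures did not overlap in either breed, although Bama cold replicate 3 was only just above Bama RT replicate 2. The rise averaged over both breeds was 1.36 times (log2 0.44 ± 0.10, adjusted p = 0.0362), made of 0.39 ± 0.14 in Bama and 0.48 ± 0.14 in Hezuo pigs. It lost its call in 9 of 12 fits that left out 1 library, with adjusted p from 0.0524 (without Bama RT replicate 1) to 0.0838 (without Bama RT replicate 3), and kept it without Bama RT replicate 2, Bama cold replicate 3 or Hezuo cold replicate 1. With Y-linked RNA as a covariate it was 0.48 (adjusted p = 0.184). This carrier is best known from red blood cell precursors. Of 5 erythroid markers, the 4 that matched a row summed to 1390 to 5290 CPM in Bama RT pigs, 234 to 3600 in the cold, 4460 to 14800 in Hezuo RT pigs and 2300 to 20900 in the cold. Those ranges overlapped between temperatures in both breeds, and their part in the rise was not tested.

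SLC25A45, a carrier of low level (mean 1.24 FPKM), had 55, 75 and 13 counts in Bama RT pigs and 29, 104 and 124 in the cold. It had 40, 39 and 19 counts in Hezuo RT pigs and 218, 258 and 145 in the cold. As CPM these were 1.73, 2.78 and 0.41, then 1.21, 3.74 and 4.07, then 1.73, 1.77 and 0.91, then 10.4, 11.1 and 5.92. The Hezuo cold libraries lay above all others, while Bama temperatures overlapped. The averaged rise was 3.38 times (1.76 ± 0.43, adjusted p = 0.0452), the change within Hezuo pigs was 2.63 ± 0.62 (adjusted p = 0.102) and that within Bama pigs 0.89 ± 0.59 (adjusted p = 0.508). The averaged call held only without Bama RT replicate 2 or Bama cold replicate 1. Each of the other 10 libraries, left out, gave adjusted p from 0.0621 (without Hezuo cold replicate 1) to 0.0955 (without Bama cold replicate 3). The call was also lost with no filter on low counts (1.76, adjusted p = 0.053) and with Y-linked RNA as a covariate (1.91, 0.208). The change within Hezuo pigs passed without Bama RT replicate 3 (adjusted p = 0.0435), with the Hezuo groups alone (0.0197) and in DESeq2 (0.000764).

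SLC25A44, a carrier of branched-chain amino acids, was among the more even members, at 30.8 ± 2.71 and 36.6 ± 3.61 CPM in Bama RT and Bama cold pigs and 39.3 ± 2.44 and 37.1 ± 6.0 CPM in the 2 Hezuo groups. SLC25A29, a carrier of basic amino acids, ranged from 11.8 to 54.8 CPM, with 13.7, 54.8 and 14.7 CPM in Bama RT pigs alone, and edgeR called it in 0 of the 6 comparisons. SLC25A2, an ornithine carrier, had 0 to 3 counts per library.

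SLC25A33, the pyrimidine nucleotide carrier, had the smallest adjusted p of the members. It had 19, 25 and 9 counts in Hezuo RT pigs and 146, 129 and 167 in the cold, against 92, 85 and 61 in Bama RT pigs and 75, 141 and 118 in the cold. As CPM these were 0.82, 1.13 and 0.43 in Hezuo RT pigs, 6.94, 5.56 and 6.82 in Hezuo cold pigs, 2.89, 3.15 and 1.92 in Bama RT pigs and 3.13, 5.07 and 3.87 in Bama cold pigs. Hezuo libraries were thus the lowest of the 12 at room temperature and the highest in the cold, and Bama libraries lay between, with temperatures that overlapped. In Hezuo pigs the level rose 8.03 times (log2 3.01 ± 0.34, adjusted p = 0.0214). It was 2.66 ± 0.65 and 4.02 ± 0.98 CPM in Bama pigs, a log2 fold change of 0.60 ± 0.31 (adjusted p = 0.369). At room temperature it was lower in Hezuo than in Bama pigs (-1.73 ± 0.34, adjusted p = 0.0416), and in the cold the difference was 0.68 ± 0.30 (adjusted p = 0.225).

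The average over both breeds for SLC25A33 was 1.80 ± 0.23 (adjusted p = 0.00459), and the call held in each of the 12 fits without 1 library and in each other fit run. The rise within Hezuo pigs did not pass when Hezuo RT replicate 1 was left out (3.03, adjusted p = 0.0697) or when Hezuo cold replicate 3 was (2.97, adjusted p = 0.119), nor with the replicate number as a block (3.07, adjusted p = 0.0506). The lower level at room temperature lost its call without Bama RT replicate 1 (-1.66, adjusted p = 0.148) or 3 (-1.92, 0.0786), Hezuo RT replicate 1 (-1.75, 0.136) or 3 (-1.45, 0.123), or any 1 Hezuo cold library (adjusted p = 0.0531 to 0.06). With Y-linked RNA as a covariate it was -1.20 (adjusted p = 0.565), with the replicate number as a block -1.75 (0.0571), and with only the 2 RT groups -1.73 (0.0851). The breed difference in the cold response was 2.41 ± 0.45 and did not pass in edgeR (adjusted p = 0.14), while DESeq2 gave 2.42 with adjusted p = 0.000132. SLC25A36, the other carrier of pyrimidine nucleotides, had log2 fold changes with cold of -0.04 ± 0.19 in Bama and -0.06 ± 0.19 in Hezuo pigs. Of the FPKM of the pair, SLC25A33 supplied 3.02% ± 1.42 (SD, n = 3) in Hezuo RT pigs and 20.8% ± 2.92 in the cold, against 7.68% ± 2.01 and 11.6% ± 2.97 in Bama pigs.

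SLC25A17, a member of the family in the peroxisomal membrane that carries coenzyme A, FAD and NAD, rose in the cold on average over both breeds. It stood at 36.1, 35.02 and 27.6 CPM in Bama RT pigs and at 53.1, 45.8 and 66.9 in the cold. In Hezuo pigs it stood at 41.9, 29.5 and 45.1 CPM at room temperature and at 47.4, 73.0 and 96.1 in the cold. Temperatures did not overlap in either breed. The averaged rise was 1.77 times (0.82 ± 0.18, adjusted p = 0.0319), with 0.75 ± 0.25 in Bama (adjusted p = 0.18) and 0.89 ± 0.25 in Hezuo pigs (adjusted p = 0.143). The call was lost without Bama RT replicate 3 (adjusted p = 0.0828), Bama cold replicate 1 (0.0543) or 3 (0.0669), Hezuo RT replicate 1 (0.0513) or 2 (0.0749), or Hezuo cold replicate 2 (0.0665) or 3 (0.0621), and with Y-linked RNA as a covariate (0.69, adjusted p = 0.279).

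**Figure D4:**
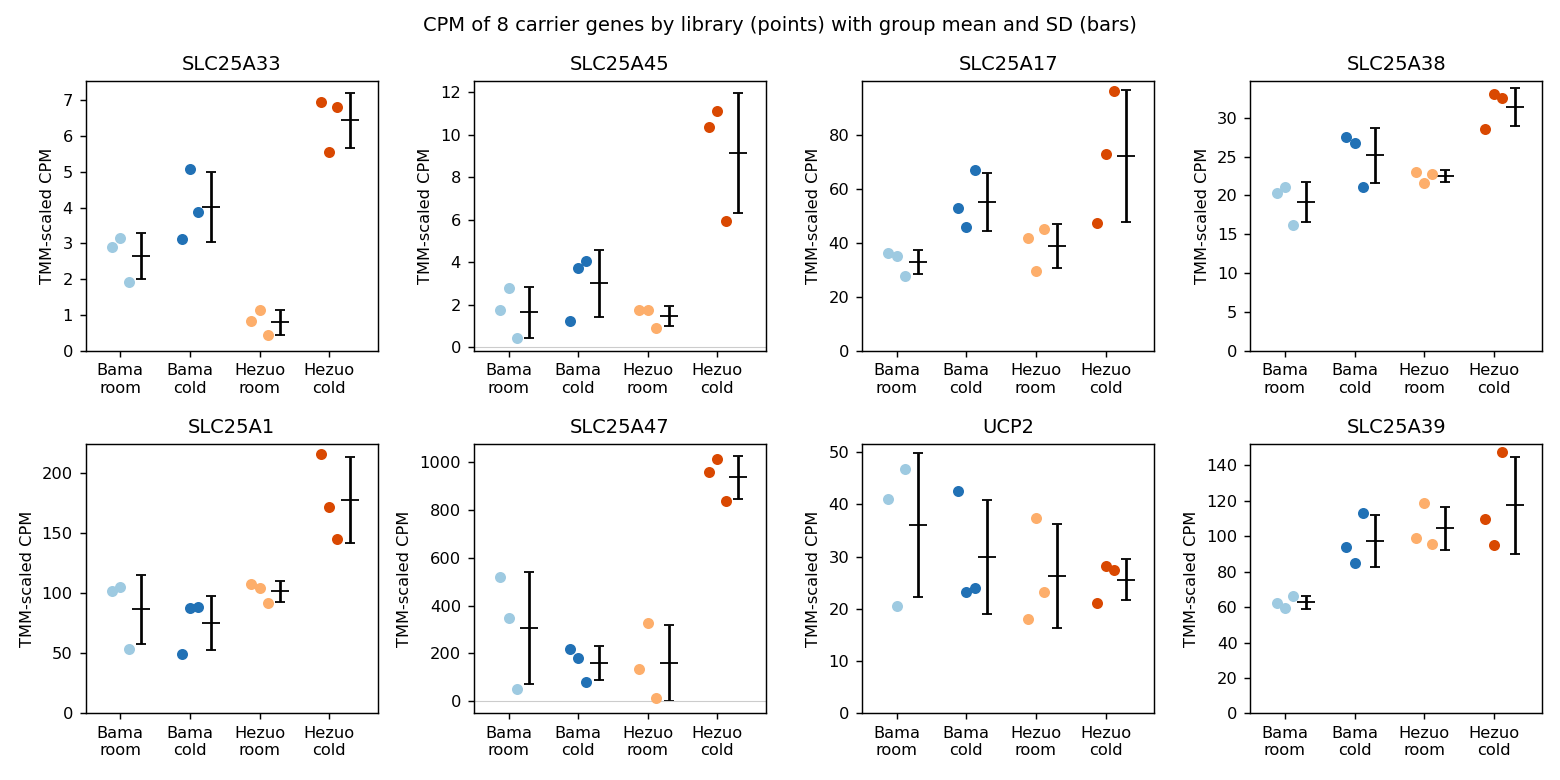
TMM-scaled CPM of 8 carrier genes in each library (points), with the group mean and SD (bars, n = 3). SLC25A33 lies between 0.43 and 1.13 CPM in the Hezuo RT libraries and between 5.56 and 6.94 CPM in the Hezuo cold libraries, while the 4 groups of UCP2 overlap.

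No other cofactor carrier was called by edgeR. SLC25A39, which brings glutathione into mitochondria, stood at 62.4, 59.4 and 66.5 CPM in Bama RT pigs and at 94.0, 84.7 and 113.3 in the cold. Hezuo pigs had 99.2, 118.5 and 95.5 CPM at room temperature and 109.7, 94.9 and 147.8 in the cold. The Bama RT libraries were again the lowest 3 of the 12, and the other 3 groups overlapped. Hezuo against Bama at room temperature gave 0.74 ± 0.17 (adjusted p = 0.0595) and cold in Bama pigs 0.63 ± 0.17 (adjusted p = 0.115). DESeq2 called both (adjusted p = 0.00556 and 0.0269), and the breed difference also passed in edgeR without Hezuo cold replicate 3 (0.0464) or with only the 2 groups (0.0485). Over the 20 alternative fits of edgeR, DESeq2 and limma the breed difference ranged from 0.44 to 0.79, with adjusted p up to 0.722. The change with cold in Bama pigs ranged from 0.43 to 0.78 and did not pass in 18 of 20. SLC25A40, its close relative, stood at 9.62, 11.7 and 8.55 CPM in Bama RT pigs, 12.6, 13.98 and 11.3 in the cold, 10.2, 10.7 and 12.4 in Hezuo RT pigs and 7.89, 10.3 and 6.82 in the cold. In the cold the breeds did not overlap, with a difference of -0.60 ± 0.18 (adjusted p = 0.0948; called by DESeq2), and the breed difference in the cold response was -0.76 ± 0.26 (adjusted p = 0.444). SLC25A39 supplied 91.35% to 98.01% of the FPKM of that pair.

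SLC25A26, the carrier of S-adenosylmethionine, stood at 5.78, 6.23 and 6.31 CPM in Bama RT pigs, 5.09, 5.25 and 6.56 in the cold, 8.80, 6.62 and 7.56 in Hezuo RT pigs and 8.37, 7.72 and 8.29 in the cold. Hezuo exceeded Bama libraries at both temperatures without overlap, by 0.33 ± 0.16 (adjusted p = 0.287) and 0.53 ± 0.16 (adjusted p = 0.0955), and DESeq2 called the latter. SLC25A16 had log2 fold changes with cold of 0.09 ± 0.18 in Bama and 0.24 ± 0.18 in Hezuo pigs. The iron carrier SLC25A28 had 0.09 ± 0.13 and 0.07 ± 0.13, the smallest SE of the 34 members.

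SLC25A47 stood apart by level and by spread. It stood at 518.8, 347.1 and 53.8 CPM in Bama RT pigs, 217.6, 180.0 and 79.8 in the cold, 136.4, 327.1 and 13.7 in Hezuo RT pigs and 958.1, 1009 and 835.0 in the cold. The Hezuo cold libraries were the highest of the 12 and within 1.21 times of each other, whereas the Hezuo RT libraries differed 23.8 times and the Bama RT libraries 9.64 times. Replicate 3 was the lowest library of each of the 4 groups. The changes did not pass: 2.55 ± 0.98 with cold in Hezuo pigs (adjusted p = 0.248), -0.95 ± 0.93 in Bama pigs (adjusted p = 0.671), and 3.50 ± 1.35 for the breed difference in the cold response (adjusted p = 0.541). That last value ranged from 2.89 (without Bama RT replicate 1) to 4.59 (without Hezuo RT replicate 2), and passed in 0 of the 19 alternative fits, those without 1 library included (adjusted p = 0.318 to 0.923). Hezuo against Bama in the cold was 2.55 ± 0.98 and did not pass (adjusted p = 0.173), while a fit of only the 2 cold groups gave 2.56 ± 0.37 (adjusted p = 0.0322). SLC25A29, the direct neighbour of SLC25A47 on chromosome 7, had values with cold of 0.56 ± 0.55 in Hezuo and -0.17 ± 0.54 in Bama pigs.

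SLC25A53, a carrier of unsettled substrate, had 33, 27 and 65 counts in Bama RT pigs, 39, 27 and 41 in the cold, 8, 16 and 8 in Hezuo RT pigs and 11, 8 and 10 in the cold. All 6 Hezuo libraries were below all 6 Bama libraries, at 0.345 to 0.726 against 0.970 to 2.05 CPM. The log2 differences between the breeds were -1.49 ± 0.44 at room temperature (adjusted p = 0.106) and -1.62 ± 0.44 in the cold (adjusted p = 0.0699), and DESeq2 called both (adjusted p = 0.0407 and 0.0229). Of the remaining carriers of unsettled substrate, SLC25A34 differed between the breeds in the cold without overlap (29.6 ± 12.8 CPM in Bama, 72.7 ± 17.5 in Hezuo pigs, 1.30 ± 0.44, adjusted p = 0.133, called by DESeq2). SLC25A35 and SLC25A43 had log2 fold changes with cold between -0.24 and 0.59, and SLC25A46, which sits in the outer membrane and acts on mitochondrial shape, had 0.10 ± 0.14 and 0.04 ± 0.14.

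A list of 33 genes that work beside the carriers was looked at in the same fit: the pyruvate carrier, calcium uniporter, sideroflexins, outer membrane channels, the import machinery of carrier proteins and the enzymes of the metabolite shuttles. Of these, 31 were tested. In Hezuo and in Bama pigs edgeR called 0 of them with cold, when 0.281% and 0.924% of all genes were called. In Hezuo pigs 7 of the 31 were higher and 0 lower at an unadjusted p below 0.05, against 8.31% and 7.25% of all genes, and 8 were higher and 1 lower in Bama pigs, against 7.78% and 8.01%. Between the breeds in the cold, 4 were higher in Hezuo pigs and 1 lower, when 1.8% and 0.961% of all genes were called in those directions. MPC1 and MPC2, the 2 subunits of the mitochondrial pyruvate carrier, differed by 0.73 ± 0.17 (adjusted p = 0.0467) and 0.90 ± 0.13 (adjusted p = 0.00889). MPC2 stood at 48.9, 58.1 and 46.1 CPM in Bama RT pigs, 37.3, 38.9 and 33.8 in the cold, 44.3, 47.6 and 39.8 in Hezuo RT pigs and 64.8, 62.0 and 78.0 in the cold, so that Bama and Hezuo libraries lay on opposite sides of their room temperature levels. Its breed difference in the cold response, 1.11 ± 0.19, did not pass (adjusted p = 0.0873).

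GPD1, the cytosolic enzyme of the glycerol phosphate shuttle, was higher in Hezuo cold pigs by 1.64 ± 0.30 (adjusted p = 0.0213), and SFXN5, a sideroflexin, by 0.69 ± 0.16 (adjusted p = 0.0477). SFXN3, another sideroflexin, was lower by 2.49 on the log2 scale (SE 0.37, adjusted p = 0.00889), with 9.25, 16.6 and 12.04 CPM in Bama and 2.09, 2.93 and 1.71 CPM in Hezuo pigs. The calls of MPC2 and SFXN3 held in each of the 12 fits without 1 library. GPD1 was lost without Hezuo cold replicate 1 or 3 or without Bama cold replicate 2 (adjusted p = 0.054 to 0.0674). It was also lost with only the 2 cold groups (0.0711). The Y-linked RNA covariate, nearly the fit without Bama cold replicate 2, gave 0.054. SFXN5 was called only without Bama RT replicate 2, Bama cold replicate 3 or Hezuo RT replicate 1 (otherwise 0.0515 to 0.165), and MPC1 only without Hezuo RT replicate 2 or Hezuo cold replicate 2 (otherwise 0.0535 to 0.163). Both were also lost with only the 2 cold groups (0.0758 for SFXN5 and 0.113 for MPC1). The same held with limma on log2(FPKM + 0.1) (0.0919 and 0.114, with log2 values of 0.38 and 0.40). SFXN5 was lost too with the replicate number as a block (0.0772). The Y-linked RNA covariate, nearly the fit without Bama cold replicate 2, gave 0.125 for SFXN5 and 0.103 for MPC1. Averaged over both breeds, LETM1, an inner membrane protein of ion exchange, rose in the cold (0.60 ± 0.13, adjusted p = 0.0359). That call held without Bama RT replicate 1, Bama cold replicate 2, Hezuo RT replicate 1 or Hezuo cold replicate 1, and the other 8 libraries left out gave 0.0567 to 0.0849. With Y-linked RNA as a covariate LETM1 was at 0.44 (adjusted p = 0.32).

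The carrier genes also gave circular RNAs, closed loops counted by reads that join a later exon end to an earlier exon start. The circRNA table holds 29 of them from 13 member genes, with 1591 back-splice reads in all, of which 1169 belong to 1 circle of SLC25A3. That circle runs from 85285642 to 85286475 on the minus strand of chromosome 5, as the table gives it (the genome build is not given in the sources used here), with a spliced length of 355 bases of annotated exons. It had 118, 115 and 130 reads in Bama RT pigs, 106, 152 and 82 in the cold, 91, 68 and 85 in Hezuo RT pigs and 76, 40 and 106 in the cold. Per 1000 gene counts of SLC25A3 these were 29, 38.5 and 31.3, then 38.7, 38.7 and 22.8, then 26.6, 24.8 and 26.9, then 25.9, 13.6 and 23.8. Hezuo RT libraries lay below Bama RT libraries on that scale, Bama cold replicate 3 lay below both, and the temperatures overlapped within each breed. The circle's own counts differed between the breeds at room temperature by -0.19 ± 0.27 (edgeR adjusted p = 0.974), and in the cold by -0.55 ± 0.27 (adjusted p = 0.566). Of the 16 member circRNAs with enough reads to be tested, from 10 host genes, edgeR and DESeq2 called 0 in the 6 comparisons, and 5 of their 96 tests had an unadjusted p below 0.05, against 7.05% of the tests of all circRNAs. Of 9032 circRNAs tested, edgeR called 0.0886% for cold in Hezuo pigs, 0.155% for cold in Bama pigs, 0.454% and 0.421% for breed at room temperature and under cold, 0.0886% for the breed difference and 0.199% for the average. The lowest unadjusted p among member circles was 0.00974, for a circle of SLC25A36 with 12 reads in all (adjusted p = 0.466). The other 28 circles had 2 to 70 reads over the 12 libraries.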

How the data were processed

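Per the labels, each library is the liver of 1 pig. Per the labels' protocols, ribosomal RNA was removed and the second cDNA strand digested, and the submitters' processing notes name fastp. The aligner, the counter and the genome build are not stated there. The authors deposited estimated counts per gene (9.48% of nonzero values fractional, rounded here) and FPKM, which served levels between genes and 1 alternative test. They also deposited back-splice counts per circRNA, and RPM values, which were not used.

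Counts were scaled by TMM (factors 0.874 to 1.197), filtered by filterByExpr (minimum count 10, total 15) and fitted with edgeR 4.0.16 (R 4.3.3; robust quasi-likelihood, 4 groups, 12 libraries, 8 residual degrees of freedom). Benjamini-Hochberg adjustment ran over 13532 genes, with calls at adjusted p below 0.05. The SE is the absolute log2 fold change over the square root of F. After ±, log2 values carry the SE, and means in CPM and shares of FPKM carry the SD (n = 3). CircRNAs needed 2 counts in 3 libraries and 10 in all. Alternatives used DESeq2 1.42.0, limma 3.58.1 on log2(FPKM + 0.1), other scalings, filters and covariates. The test was tested on simulated data. The members and lists were chosen with earlier results of these data known. Values in every library are given for members called in any comparison, the 4 of smallest p in each comparison, UCP2, UCP3 and the 3 of highest FPKM. Partner genes are named where called. Others named were chosen after their values were seen. Of the tested members, 1 enters the counts but its own values are not reported here.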

Additional observations from a re-analysis of the deposited data

How the results depend on the processing

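The number of members called changed with the settings as follows. With DESeq2 it was 5 for cold in Hezuo pigs, 2 for cold in Bama pigs, 4 and 5 for breed at room temperature and in the cold, 1 for the breed difference in the response and 8 for the averaged response, against 1, 0, 1, 1, 0 and 4 in the edgeR fit. With limma on log2(FPKM + 0.1) it was 2 for cold in Bama pigs, 4 for breed in the cold and 7 for the average. With the replicate number as a block it was 0 for cold in Hezuo pigs and for breed at either temperature, and 5 for the average. Deviations from the group mean in same-numbered pigs of different groups had r from -0.198 to 0.148 over 18 pairs, 3 of them above 0.1. The median was -0.001, against -0.002 for pigs of different numbers. With 3 pigs a group these values cannot show whether a number stands for a shared batch, which the labels do not state. With Y-linked RNA as a covariate it was 0 for breed at either temperature and 1 for the average, and with only the 2 groups compared 2 for cold in Hezuo pigs. That last fit could not be made for the 2 comparisons that use all 4 groups. Leaving out 1 library gave 0 to 2 for cold in Hezuo pigs, 0 for cold in Bama pigs, 0 to 1 for breed at room temperature, 0 to 2 for breed in the cold, 0 for the breed difference and 1 to 4 for the average. The cause of these changes was not tested, apart from the fewer samples of the last. Calls over all genes moved with the settings too, so the changed member counts are no result about the carriers alone. Totals over all genes are given here for cold within each breed only. For cold in Hezuo pigs edgeR called 38 genes in all, DESeq2 530 and limma 71. With only the 2 groups 60 were called, with the Y-linked covariate 3 and with the replicate block 0. For cold in Bama pigs edgeR called 125 genes in all and DESeq2 674. There the same 3 alternatives called 12, 1 and 67. No member circRNA was called by any alternative run. RLE size factors and a filter at a mean of 1 CPM left all 6 counts as they were. Of 39 gene results, 3 changed sign in some fit, all of UCP2: for cold in Hezuo pigs it was 0.08 with limma, 0.32 without Hezuo RT replicate 2 and 0.09 without Hezuo cold replicate 1 (-0.243 to 0.32 when 1 library was left out), for breed in the cold 0.11 without Bama cold replicate 1 (-0.379 to 0.11), and for the average 0.025 without Hezuo RT replicate 2 (-0.325 to 0.025). With 9 to 167 counts per library, SLC25A33 is the called member of lowest depth.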

Other observations

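The gene table has 6 further rows whose description names an SLC25 carrier but whose symbol is missing (5 rows) or different (1 row), so that the rule did not take them as members. They were looked at after their values were seen. The row described as SLC25A30, a relative of the uncoupling proteins, carries the symbol COG3, and the table does not say which gene its reads come from. It stood at 144.9, 98.9 and 65.6 CPM in Bama RT pigs, 68.7, 65.6 and 66.5 in the cold, 57.7, 76.2 and 39.7 in Hezuo RT pigs and 226.6, 149.3 and 256.2 in the cold. The Hezuo cold libraries were the highest of the 12. In Hezuo pigs it rose with cold by 1.86 ± 0.31 (edgeR adjusted p = 0.0444) and in the cold it was higher in Hezuo than in Bama pigs by 1.65 ± 0.31 (adjusted p = 0.0228), while the breed difference in the response was 2.49 ± 0.43 and did not pass (adjusted p = 0.092). The rise in Hezuo pigs held only without Bama RT replicate 1 or 3, and the other 10 libraries left out gave adjusted p from 0.0522 to 0.151. It was also lost with the replicate number as a block (1.89, 0.0844). The Y-linked RNA covariate, here nearly the fit without Bama cold replicate 2, gave 1.86 (0.0827). The breed difference in the cold was lost without Bama cold replicate 1 or 2 or Hezuo cold replicate 1 or 3 (0.0623 to 0.0817). With Y-linked RNA as a covariate, again nearly the fit without Bama cold replicate 2, the adjusted p was 0.0615.

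The row described as SLC25A48, a choline carrier, fell in the cold over both breeds by 1.08 on the log2 scale (SE 0.21, edgeR adjusted p = 0.0237). It stood at 9.71, 16.8 and 17.04 CPM in Bama RT pigs and at 5.21, 9.24 and 7.12 in the cold, and at 16.2, 16.3 and 22.9 CPM in Hezuo RT pigs and 11.8, 6.90 and 6.33 in the cold. Temperatures did not overlap in either breed. The call was lost without Bama RT replicate 3, Bama cold replicate 3, Hezuo RT replicate 2 or 3, or Hezuo cold replicate 2 or 3 (adjusted p = 0.0522 to 0.0653), and with Y-linked RNA as a covariate (-0.90, adjusted p = 0.251). SLC25A10 (dicarboxylate carrier), SLC25A32, SLC25A37 (mitoferrin 1) and SLC25A51 (NAD carrier), identified in the same way, were called in 0 of the 6 comparisons by edgeR, with 2 of their 24 tests at an unadjusted p below 0.05. Of all genes, edgeR called 0.00739% to 3.89% in those comparisons, and 3.58% to 11.8% in each direction had an unadjusted p below 0.05. SLC25A10 differed most between the breeds in the cold, by 0.62 ± 0.17 (adjusted p = 0.0652).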
